A study of Danio rerio with 12 samples.

Results

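Control larvae of the AB wild-type zebrafish line were compared between 4 and 2 days post fertilisation (dpf), as a description of development without either drug over these 2 days. The members were chosen by their labels: 4 of the 12 arrays of the study, of which 2 held 4 dpf control larvae and 2 held 2 dpf control larvae. Both ages were sham-treated in the same way. Proteinase K was used to take the embryos out of the chorion, and the vehicle was injected, which held DMSO and ethanol in KCl, with TRITC-dextran as a fluorescent tracer. Total RNA of a pool of 30 to 40 whole larvae was hybridised to each Affymetrix Zebrafish Gene 1.0 ST array. The other 8 arrays held larvae of the same 2 ages injected with serotonin (5-HT) or with reserpine, a blocker of vesicular monoamine uptake, in 2 replicates per group. The labels call the replicates biological duplicates but do not give their clutches or the hour of collection, and they name no dose. Uninjected larvae were not analysed here, so every level below belongs to injected and dechorionated animals.

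Between these ages a zebrafish embryo becomes a free-swimming larva. Hatching is completed, the swim bladder is inflated, the outer segments of the photoreceptors grow, the liver and the kidney tubules take up their transport and metabolic work, and the yolk is largely used up. In a whole animal the signal of a gene depends on how many cells express it and on how much RNA each of them holds, and in these pools the 2 cannot be told apart.

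The signal of each feature, on the log2 scale, was compared by limma with 6 group means over all 12 arrays. A gene was called higher or lower when its p, adjusted over 58127 features, was under 0.05, and the words rose and fell are used only of such genes. Among 18385 named genes, 1524 were higher at 4 dpf (8.29% of those tested) and 1321 were lower (7.19%). The 2 directions differed in size. A rise of at least 4-fold was called for 269 genes and a fall of at least 4-fold for 12, and a rise of at least 16-fold for 46 genes and a fall of that size for 0. The median change over all genes was -0.04, with 45.7% of genes above 0. Most calls needed all 4 control arrays: 432 of the 1524 higher and 92 of the 1321 lower genes passed in each of 4 fits that left out 1 control array. The lowest counts came without replicate 1 of the 2 dpf controls or without either 4 dpf control array. These genes are said below to be called in every such fit. For most of the others that are named, the paragraph gives the fits in which the call was lost, in most cases with the adjusted p. Such a fit leaves 1 pool at 1 age, which widens the standard error. A call can therefore be lost although the change stays alike. Without either 4 dpf control array, the log2 change of prph2b was 2.900 or 2.910, against 2.905 with all arrays. A lost call thus does not show that the change rested on the array left out.

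**Figure D1:**
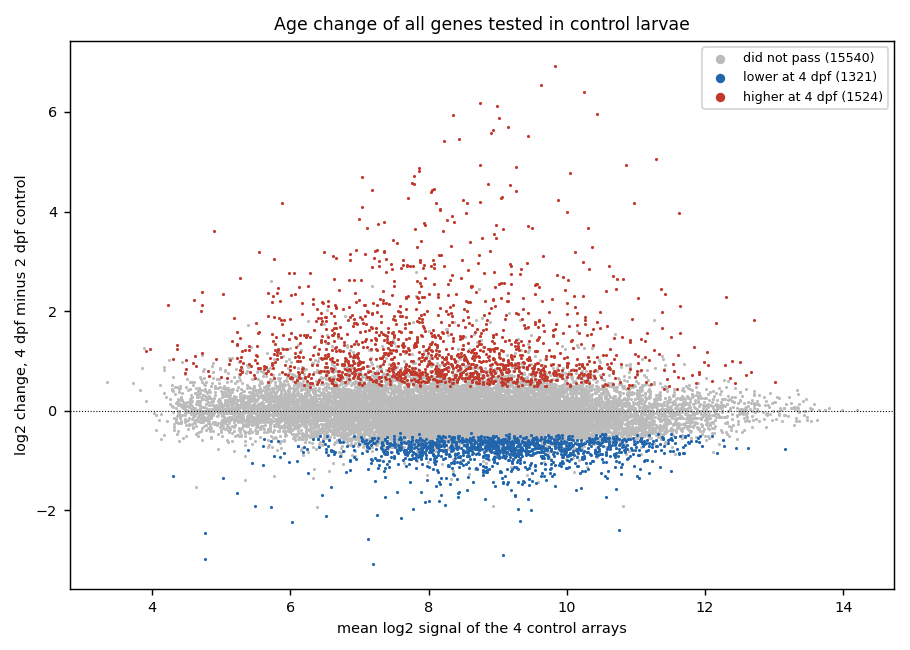
Each point is 1 of 18385 genes, plotted by its mean log2 signal over the 4 control arrays and by its log2 change from 2 to 4 dpf, with the 1524 higher genes in red and the 1321 lower genes in blue. The red points reach changes above 6, while the blue points lie mostly between 0 and -2.

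The digestive enzymes of the exocrine pancreas went with the age labels. Of these, 16 of 16 tested were higher at 4 dpf, with a median log2 change of 4.88. This list, too, was chosen with earlier results of these data known, so it is no independent check of the labels. The list member sycn.2 had 2.99 and 3.19 at 2 dpf, below the 25th percentile of those arrays (4.67 and 4.6). Among the controls it reached that level, which the filter on low signals asked for, only at 4 dpf. Its 2 dpf side may be background, and the size of its change is uncertain. The 4 control arrays did not all sit alike. The first principal component of all features, with 45.89% of the variance, separated the ages. The second, with 17.12%, placed the 2 dpf controls at 38.9 and 38.5 and the 4 dpf controls at -11.8 and -22.9, while the 5-HT arrays lay the other way round, at -37.3 and -45.4 at 2 dpf and at 44.3 and 51.0 at 4 dpf. The reserpine arrays lay at -38.6 and 32.9 at 2 dpf and at -15.1 and -34.6 at 4 dpf. Part of the difference between the control ages therefore lay along a component that also parted arrays of the same age, and its part in single genes was not tested. Of the 2 dpf controls, replicate 1 had the lower mean signal of the exocrine pancreas list (6.15 against 7.33) and of the list of liver metabolism (8.17 against 9.17). The same order was found at 2 dpf in 5-HT larvae (6.60 against 7.62 and 8.91 against 9.28) and in reserpine larvae (6.28 against 7.25 and 8.76 against 9.14).

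The labelled ages were then described through lists of genes chosen for organs and cell types other than the gut and the pancreas. Some listed genes, such as fabp6 and slc5a1, also belong to the gut, and whole larvae do not separate the sites. Of 1610 listed genes, 1362 were tested and 18 others were on the array but below the filter on low signals. A list is described by the number of its tested genes that were higher or lower, which is to be read against 8.29% and 7.19% of all genes, and by its median, which is to be read against -0.04. In brackets stand, where not given before, the median and the left-out range, which is the lowest and the highest of these values over the 4 fits that left out 1 control array.

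**Figure D2:**
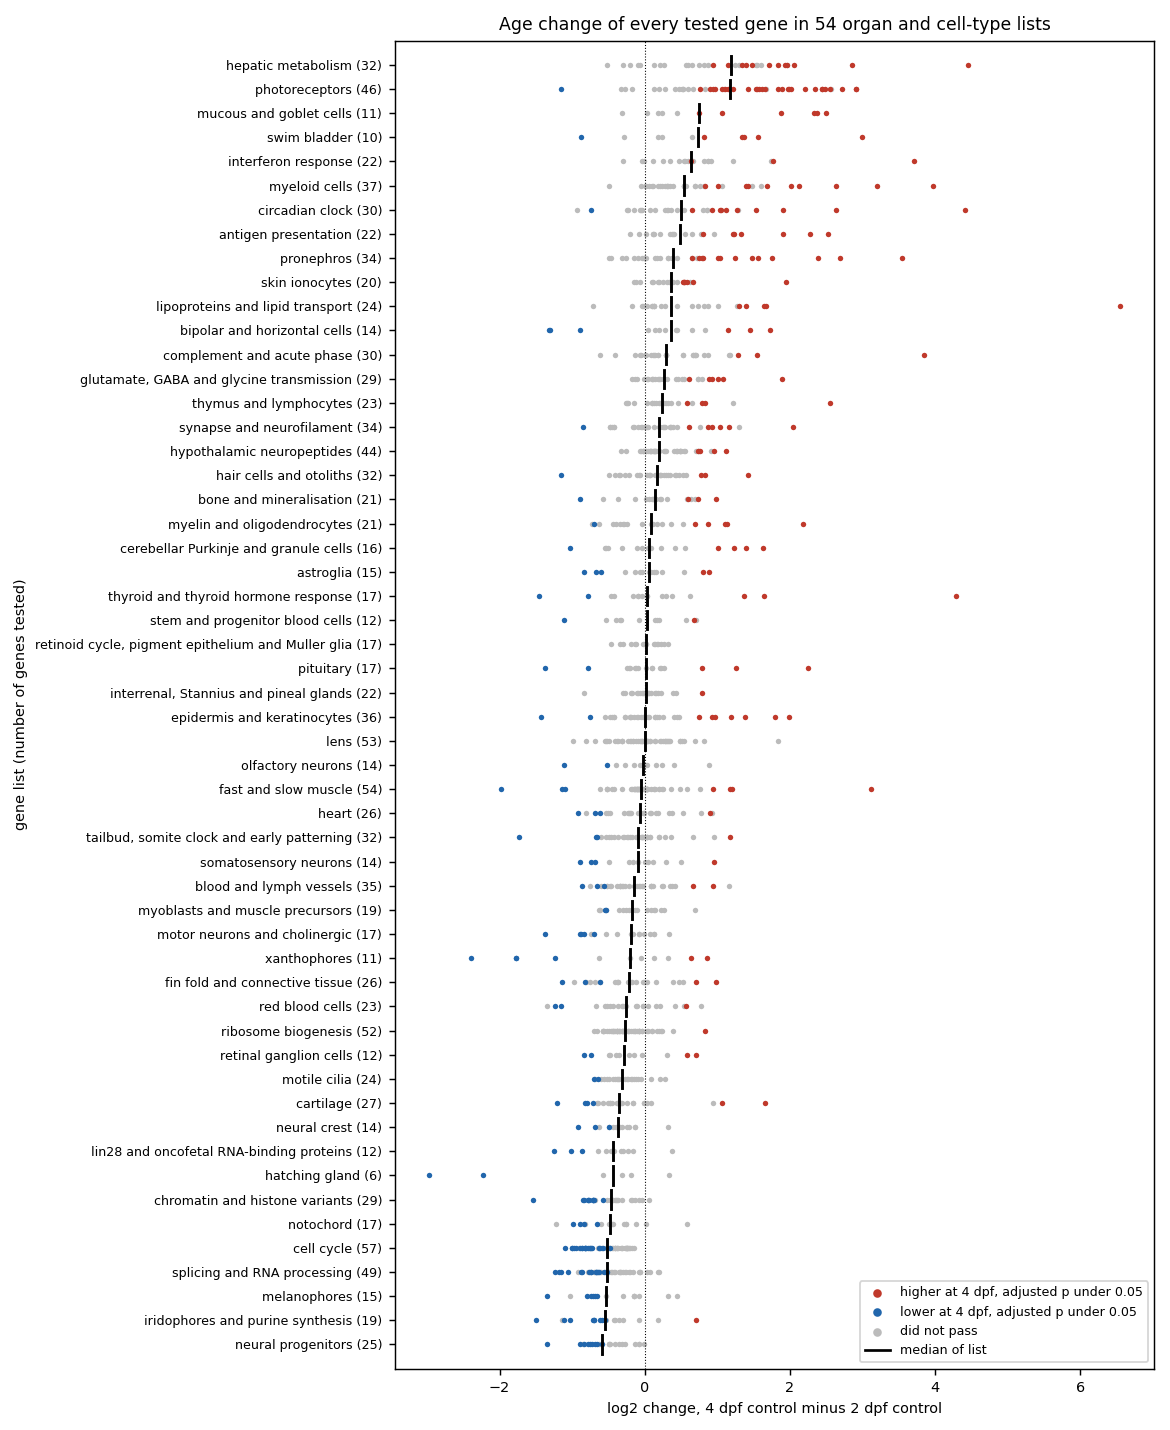
Each row is 1 of 54 gene lists, ordered by median, and each point is the log2 change of 1 tested gene, red where higher, blue where lower and grey where it did not pass, with the median of the list as a black bar. Hepatic metabolism and photoreceptors have the highest medians, 1.19 and 1.18, and neural progenitors the lowest, -0.60.

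In the eye, 28 of 46 photoreceptor genes rose, and of 53 lens genes 0 passed. Of the other photoreceptor genes 1 was lower. The list had a median log2 change of 1.18 (left-out range 6 to 20 higher, 0 to 1 lower, median 1.16 to 1.31). Photoreceptors convert light into a change of membrane potential through an opsin, the G protein transducin, a phosphodiesterase and cyclic nucleotide-gated channels. Rod transducin, gnat1, had a log2 signal of 9.27 and 9.71 at 2 dpf and 11.48 and 11.46 at 4 dpf. gnat1 lay higher at 4 dpf without overlap, by a log2 change of 1.98 ± 0.27 (SE, adjusted p = 0.00248). The cone channel subunit cnga3a had a signal of 7.92 and 8.02 at 2 dpf and 9.57 and 9.61 at 4 dpf. For cnga3a the log2 change was 1.62 ± 0.23 (SE, adjusted p = 0.00281). The guanylate cyclase gucy2d, which restores cyclic GMP after light, stood at 7.31 and 7.48 at 2 dpf and 9.33 and 9.25 at 4 dpf and changed by 1.9, adjusted p = 0.000207. Shut-off of the receptor was represented by the rhodopsin kinase grk1a (1.57, adjusted p = 0.00145), and the shuttle of retinoids by rbp3, the interphotoreceptor retinoid-binding protein (2.21, adjusted p = 0.000611). These 5 genes and gngt1, the rod transducin gamma subunit (1.21, adjusted p = 0.00455), were called in every fit that left out 1 control array. The opsins of ultraviolet cones, opn1sw1 (1.83, adjusted p = 0.0218), and of blue cones, opn1sw2 (2.44, adjusted p = 0.0161), rose, as did the outer segment protein prph2b (2.9, adjusted p = 0.0133) and the cone phosphodiesterase pde6c (2.56, adjusted p = 0.011), 4 genes chosen after their values were seen. The photoreceptor gene that fell was nr2e3, a nuclear receptor of rod differentiation (-1.16, adjusted p = 0.0117). Calls ended, with the adjusted p in brackets, without 2 dpf replicate 1, 4 dpf replicate 1 or 4 dpf replicate 2 for opn1sw1 (0.1 to 0.14), opn1sw2 (0.077 to 0.12), prph2b (0.075 to 0.11) and pde6c (0.064 to 0.087). For nr2e3 (0.091 to 0.1) this held without 2 dpf replicate 1 or 4 dpf replicate 2.

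Calls among genes of the second-order neurons of the retina went both ways in controls, although 11 of the 14 tested genes lay above 0. In 5-HT and in reserpine larvae 4 of these genes were higher and 0 lower. Of 14 genes of bipolar and horizontal cells, 3 were higher and 3 lower (median 0.35, left-out range 1 to 4 higher, 0 to 2 lower, median 0.3 to 0.47). The rising genes belong to the signalling complex of ON bipolar cells or to calcium binding: lrit3a, a leucine-rich repeat protein of that complex, had 7.6 and 7.92 at 2 dpf and 9.49 and 9.49 at 4 dpf. lrit3a was higher on both 4 dpf arrays, with a log2 change of 1.73 ± 0.2 (SE, adjusted p = 0.00109). Its partner nyx (1.15, adjusted p = 0.0245) and cabp5b (1.45, adjusted p = 0.019) also rose. The transcription factors vsx1 (-1.32, adjusted p = 0.0394) and lhx1a (-0.9, adjusted p = 0.0152) of the same cells fell. Of 12 genes of retinal ganglion cells, 2 were higher and 2 lower, the latter atoh7, which specifies these cells (-0.84, adjusted p = 0.0376), and isl2b (-0.74, adjusted p = 0.0439) (median -0.29, left-out range 0 to 1 higher, 0 lower, median -0.23 to -0.18). Of 17 genes of the retinoid cycle, pigment epithelium and Müller glia, 0 passed in limma's test (median 0.01, left-out range 0 higher, 0 lower, median -0.08 to 0.14). The isomerase rpe65a had 11.22 and 11.68 at 2 dpf and 10.63 and 11.59 at 4 dpf, with overlap between the ages. Of 53 lens genes, 0 passed and the median was 0.005 (left-out range 0 higher, 0 lower, median -0.19 to 0.14). The alpha crystallin cryaa had 8.81 and 9.32 at 2 dpf and 9.67 and 9.06 at 4 dpf, and the replicates of each age lay farther apart than the means of the ages. At an unadjusted p under 0.05 there were 5 lens genes and 0 genes of the retinoid cycle list. With 1 array fewer, calls were lost (adjusted p in brackets) without any 1 of the 4 control arrays for vsx1 (0.095 to 0.2), atoh7 (0.085 to 0.2) and isl2b (0.11 to 0.23). For nyx (0.12 to 0.15) and lhx1a (0.067 to 0.12) this held without 2 dpf replicate 1, 4 dpf replicate 1 or 4 dpf replicate 2. For cabp5b (0.11 to 0.13) this held without 2 dpf replicate 1 or 4 dpf replicate 1.

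In the nervous system, some genes of dividing precursors were lower and some of mature neurons and glia were higher. Of 25 genes of neural progenitors, 9 were lower and 0 higher, with a median of -0.60 (left-out range 0 higher, 2 to 7 lower, median -0.73 to -0.51). The proneural factor neurog1 had 9.12 and 8.6 at 2 dpf and 7.51 and 7.51 at 4 dpf. neurog1 lay lower at 4 dpf without overlap, by a log2 change of -1.35 ± 0.21 (SE, adjusted p = 0.00541). The radial glia gene fabp7a (-0.84, adjusted p = 0.00585), the SoxB1 factor sox19b (-0.9, adjusted p = 0.0123) and the Notch ligand dla (-0.76, adjusted p = 0.0286) fell too. Of 17 genes of motor neurons and cholinergic transmission, 5 were lower, all of them transcription factors that set motor neuron identity: mnx1, mnx2a, isl1a, isl2a and lhx4 (median -0.19, left-out range 0 higher, 1 to 4 lower, median -0.35 to -0.28). The LIM factor lhx4, which also acts in the pituitary, had 9.37 and 8.84 at 2 dpf and 7.71 and 7.74 at 4 dpf. For lhx4 the log2 change was -1.38 ± 0.22 (SE, adjusted p = 0.00518). The enzyme of acetylcholine synthesis, chata, had 7.94 and 7.51 at 2 dpf and 8.02 and 7.69 at 4 dpf and did not pass (0.13, adjusted p = 0.763). Some calls needed all arrays and ended (adjusted p in brackets) without 2 dpf replicate 1, 4 dpf replicate 1 or 4 dpf replicate 2 for dla (0.12 to 0.18), mnx1 (0.08 to 0.18), mnx2a (0.088 to 0.16) and isl2a (0.088 to 0.14). For isl1a (0.082 to 0.21) this held without any 1 of the 4 control arrays. For sox19b (0.093 to 0.11) this held without 2 dpf replicate 1 or 4 dpf replicate 2. For fabp7a (0.064) this held without 4 dpf replicate 2.

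Among genes of mature neurons, single members stood out from lists with small medians. Of 34 genes of the synapse and neurofilaments, 6 were higher and 1 lower, with a median of 0.20 (left-out range 1 to 3 higher, 0 to 1 lower, median 0.08 to 0.23). The intermediate filament gene inaa had 6.77 and 6.83 at 2 dpf and 8.82 and 8.85 at 4 dpf. inaa was higher on both 4 dpf arrays, with a log2 change of 2.04 ± 0.18 (SE, adjusted p = 0.000244). The kinase camk2a, which acts in synaptic plasticity, changed by 1.16, adjusted p = 0.00863, and the chloride exporter slc12a5b by 1.03, adjusted p = 0.0127. The middle neurofilament subunit nefmb fell (-0.85, adjusted p = 0.0171), whereas snap25a, a part of the vesicle fusion machinery, had 11.51 and 11.5 at 2 dpf and 11.52 and 11.47 at 4 dpf. Of 29 genes of glutamate, GABA and glycine transmission, 6 were higher and 0 lower (median 0.27, left-out range 2 to 5 higher, 0 lower, median 0.2 to 0.39). The GABA-A receptor subunit of cerebellar granule cells, gabra6a, had 5.96 and 6.17 at 2 dpf and 7.77 and 8.14 at 4 dpf. gabra6a lay higher at 4 dpf without overlap, by a log2 change of 1.89 ± 0.28 (SE, adjusted p = 0.00367). The NMDA receptor subunit grin1b also rose (1.07, adjusted p = 0.0128). Of 16 genes of the cerebellum, 4 were higher and 1 lower (median 0.06, left-out range 2 to 4 higher, 0 to 1 lower, median -0.03 to 0.16). The calcium release channel itpr1b had 7.2 and 7.07 at 2 dpf and 8.62 and 8.44 at 4 dpf. For itpr1b the log2 change was 1.4 ± 0.19 (SE, adjusted p = 0.00234). The Purkinje cell gene aldoca rose too (1.63, adjusted p = 0.0157). Calls were lost without 2 dpf replicate 1, 4 dpf replicate 1 or 4 dpf replicate 2 for nefmb and grin1b. For aldoca this held without 2 dpf replicate 1 or 4 dpf replicate 1. For slc12a5b this held without 2 dpf replicate 2, 4 dpf replicate 1 or 4 dpf replicate 2. For camk2a this held without 4 dpf replicate 1.

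Myelin genes were higher in part. Of 21 genes of myelin and oligodendrocytes, 5 were higher and 1 lower, with a median of 0.09 (left-out range 2 to 4 higher, 0 lower, median 0.02 to 0.1). Myelin basic protein, mbpa, had 7.37 and 7.6 at 2 dpf and 9.39 and 9.93 at 4 dpf. mbpa was higher on both 4 dpf arrays, with a log2 change of 2.17 ± 0.28 (SE, adjusted p = 0.00173). The claudin of the myelin sheath, cldnk, had 7.49 and 7.59 at 2 dpf and 8.68 and 8.66 at 4 dpf. cldnk lay higher at 4 dpf without overlap, by a log2 change of 1.13 ± 0.14 (SE, adjusted p = 0.00167). Both were called in every fit that left out 1 control array. The lipid hydroxylase fa2h (1.1, adjusted p = 0.00674) and the myelin glycoprotein mag (0.88, adjusted p = 0.0204) rose, and pmp22b, the counterpart of a protein of peripheral myelin, fell (-0.69, adjusted p = 0.0141). The paralog mbpb had 11.62 and 11.79 at 2 dpf and 11.79 and 11.85 at 4 dpf. Of 15 astroglial genes, 2 were higher and 3 lower (median 0.06, left-out range 0 to 2 higher, 0 to 3 lower, median -0.05 to 0.05). Glutamine synthetase glula (0.8, adjusted p = 0.0249) and the potassium channel kcnj10a (0.88, adjusted p = 0.00993) rose, and the glutamate transporter slc1a3b (-0.84, adjusted p = 0.00844), the water channel aqp4 (-0.67, adjusted p = 0.0433) and gfap (-0.6, adjusted p = 0.0473) fell. Calls ended, with the adjusted p in brackets, without 2 dpf replicate 1, 4 dpf replicate 1 or 4 dpf replicate 2 for fa2h (0.051 to 0.056), glula (0.11 to 0.14), slc1a3b (0.056 to 0.07), aqp4 (0.15 to 0.24) and gfap (0.18 to 0.26). For mag (0.065 to 0.15) and pmp22b (0.053 to 0.11) this held without any 1 of the 4 control arrays. For kcnj10a (0.059 to 0.078) this held without 4 dpf replicate 1 or 4 dpf replicate 2.

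Of 44 hypothalamic neuropeptide genes, 4 were higher and 0 lower, a share near that of all genes (median 0.2, left-out range 0 to 3 higher, 0 lower, median 0.21 to 0.26). They were vip (1.12, adjusted p = 0.0096), tac3b (0.95, adjusted p = 0.013), adcyap1a (0.76, adjusted p = 0.0191) and nmu (0.73, adjusted p = 0.0221). Oxytocin, oxt, had 8.53 and 8.43 at 2 dpf and 8.9 and 9.04 at 4 dpf, and hypocretin, hcrt, which promotes wakefulness, had 5.38 and 5.87 at 2 dpf and 5.73 and 5.82 at 4 dpf. Neither passed. In the sensory lists few genes passed. Of 32 genes of hair cells and otoliths, 3 were higher and 1 lower (median 0.17, left-out range 1 to 2 higher, 0 lower, median 0.08 to 0.17). The calcium buffer pvalb8 had 9.93 and 10.48 at 2 dpf and 11.55 and 11.71 at 4 dpf. For pvalb8 the log2 change was 1.43 ± 0.19 (SE, adjusted p = 0.00229). The otoconin oc90 of the otolith matrix fell (-1.15, adjusted p = 0.0242). Of 14 olfactory genes, 0 were higher and 2 lower (median -0.02, left-out range 0 higher, 0 to 1 lower, median -0.06 to 0.01). Both are transcription factors, ebf2 (-1.12, adjusted p = 0.00994) and ebf3a (-0.53, adjusted p = 0.0448). Of 14 somatosensory genes, 1 was higher and 3 lower (median -0.1, left-out range 0 to 1 higher, 0 to 1 lower, median -0.27 to -0.01). The irritant receptor trpa1b rose (0.95, adjusted p = 0.00663), and isl1a, drgx (-0.69, adjusted p = 0.0288) and prdm12b (-0.73, adjusted p = 0.0146), which specify sensory neurons, fell. Of 24 genes of motile cilia, 0 were higher and 2 lower (median -0.31, left-out range 0 higher, 0 to 1 lower, median -0.41 to -0.29). They include the master regulator foxj1a (-0.65, adjusted p = 0.043). With 1 array fewer, calls were lost (adjusted p in brackets) without any 1 of the 4 control arrays for nmu (0.07 to 0.14), oc90 (0.068 to 0.17), ebf3a (0.058 to 0.26), drgx (0.051 to 0.17), foxj1a (0.053 to 0.23) and isl1a (0.082 to 0.21). For vip (0.061 to 0.072), tac3b (0.054 to 0.098), adcyap1a (0.098 to 0.11), ebf2 (0.058 to 0.069) and prdm12b (0.077 to 0.11) this held without 2 dpf replicate 1, 4 dpf replicate 1 or 4 dpf replicate 2. For trpa1b (0.057 to 0.068) this held without 2 dpf replicate 1 or 4 dpf replicate 2.

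The pituitary and thyroid lists changed through a few genes with opposite directions. Of 17 pituitary genes, 3 were higher and 2 lower (median 0.01, left-out range 2 to 3 higher, 1 to 2 lower, median -0.06 to 0.04). Growth hormone, gh1, had 8.38 and 8.95 at 2 dpf and 10.79 and 11.03 at 4 dpf. gh1 was higher on both 4 dpf arrays, with a log2 change of 2.25 ± 0.23 (SE, adjusted p = 0.000471). The receptor through which the hypothalamus releases growth hormone, ghrhra, had 6.53 and 6.9 at 2 dpf and 7.89 and 8.04 at 4 dpf. ghrhra lay higher at 4 dpf without overlap, by a log2 change of 1.25 ± 0.19 (SE, adjusted p = 0.00447). Both were called in every fit that left out 1 control array. The precursor of corticotropin and melanotropin, pomca, rose (0.79, adjusted p = 0.0326), and prolactin, prl, had 7.39 and 7.48 at 2 dpf and 7.15 and 7.23 at 4 dpf. The lower genes were transcription factors, lhx4, described above, and neurod4 (-0.79, adjusted p = 0.0178).

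Of 17 genes of the thyroid and of the response to its hormone, 3 were higher and 2 lower (median 0.04, left-out range 1 to 3 higher, 0 to 1 lower, median 0.01 to 0.11). The carrier of thyroid hormone in plasma, ttr, had 6.4 and 7.44 at 2 dpf and 11.12 and 11.3 at 4 dpf. For ttr the log2 change was 4.29 ± 0.5 (SE, adjusted p = 0.00108). This is a 19.6-fold rise. The deiodinase dio1 (1.36, adjusted p = 0.00951) and klf9, a direct target of the hormone receptor (1.64, adjusted p = 0.0109), rose. The oxidase duox (-1.47, adjusted p = 0.0114), which feeds hormone synthesis in the gland, and the thyroid and forebrain factor nkx2.4b (-0.79, adjusted p = 0.00836) fell, and the iodide transporter slc5a5 had 5.47 and 5.88 at 2 dpf and 5.93 and 5.89 at 4 dpf. Of 22 genes of the interrenal, the corpuscles of Stannius and the pineal, 1 was higher and 0 lower (median 0.01, left-out range 0 to 1 higher, 0 lower, median -0.01 to 0.03). It was cyp11c1, an enzyme of cortisol synthesis (0.79, adjusted p = 0.0157). The regulator of cholesterol import into mitochondria, star, had 7.94 and 7.82 at 2 dpf and 8.22 and 8.4 at 4 dpf. Some calls needed all arrays and ended (adjusted p in brackets) without 2 dpf replicate 1, 4 dpf replicate 1 or 4 dpf replicate 2 for dio1 (0.059 to 0.071), nkx2.4b (0.056 to 0.073), cyp11c1 (0.091 to 0.11), neurod4 (0.064 to 0.14) and pomca (0.051 to 0.23). For klf9 (0.071 to 0.084) this held without 2 dpf replicate 1 or 4 dpf replicate 1. For duox (0.052 to 0.088) this held without 2 dpf replicate 2 or 4 dpf replicate 1.

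Among listed genes of the pronephros, the larval kidney, those that passed were higher and include transporters for reabsorption. Whole larvae do not separate the kidney from other sites such as the gut, and the site of these rises was not tested. Of 34 pronephric genes, 13 were higher and 0 lower, with a median of 0.38, and 7 of the 13 were called in every fit that left out 1 control array (left-out range 7 to 11 higher, 0 lower, median 0.34 to 0.48). The sodium-glucose transporters slc5a2 and slc5a1, the latter also of the gut, recover glucose. For slc5a2 the signal was 6.63 and 6.71 at 2 dpf and 9.01 and 9.1 at 4 dpf. The ages did not overlap for slc5a2, whose log2 change was 2.38 ± 0.17 (SE, adjusted p = 5.59e-05). For slc5a1 it was 7.5 and 6.86 at 2 dpf and 11.05 and 10.4 at 4 dpf. slc5a1 lay higher at 4 dpf without overlap, by a log2 change of 3.54 ± 0.43 (SE, adjusted p = 0.00127). The lactate transporter slc5a12 (1.55, adjusted p = 0.000177), the sulphate transporter slc13a1 (1.75, adjusted p = 0.00251, chosen after its values were seen) and the phosphate transporter slc34a1a (1.25, adjusted p = 0.0012) rose, as did the scaffold pdzk1, which holds such transporters at the brush border. pdzk1 stood at 8.49 and 8.72 at 2 dpf and 11.32 and 11.27 at 4 dpf. For pdzk1 the log2 change was 2.69 ± 0.18 (SE, adjusted p = 4.62e-05). The endocytic receptor cubn, which takes up filtered proteins, had 7.82 and 7.67 at 2 dpf and 9.21 and 9.22 at 4 dpf. cubn was higher on both 4 dpf arrays, with a log2 change of 1.47 ± 0.2 (SE, adjusted p = 0.00248). Its partner lrp2a had 8.63 and 8.2 at 2 dpf and 8.49 and 8.63 at 4 dpf, and nephrin, nphs1, of the glomerular filter had 7.57 and 7.42 at 2 dpf and 7.48 and 7.48 at 4 dpf, and neither passed.

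Some listed genes of skin ionocytes, mucous cells and the epidermis rose, and some of the epidermis and the hatching gland fell. Of 20 genes of skin ionocytes, which exchange ions with the water, 6 were higher and 0 lower, with a median of 0.36, and none of the 6 was called in every fit that left out 1 control array (left-out range 0 to 2 higher, 0 lower, median 0.34 to 0.43). The ammonia channel rhcgb had 8.81 and 9.25 at 2 dpf and 11.03 and 10.93 at 4 dpf. rhcgb lay higher at 4 dpf without overlap, by a log2 change of 1.95 ± 0.32 (SE, adjusted p = 0.00612). The ionocyte factor foxi3a (0.67, adjusted p = 0.0285), the sodium-proton exchanger slc9a3.2 (0.53, adjusted p = 0.0338) and the chloride channel cftr (0.54, adjusted p = 0.0445) also rose. Of 11 genes of mucous and goblet cells, 6 were higher and 0 lower, with a median of 0.75 (left-out range 2 to 3 higher, 0 lower, median 0.71 to 0.78). The membrane mucin muc13b had 7.25 and 7.49 at 2 dpf and 9.91 and 9.81 at 4 dpf. For muc13b the log2 change was 2.49 ± 0.18 (SE, adjusted p = 6.06e-05). The mucin-glycosylating enzyme galnt8a.1 had 3.44 and 3.64 at 2 dpf and 5.91 and 5.92 at 4 dpf. galnt8a.1 was higher on both 4 dpf arrays, with a log2 change of 2.38 ± 0.31 (SE, adjusted p = 0.002). Its 2 dpf values lay below the 25th percentile of their arrays (4.67 and 4.6), the level that the filter on low signals asked for. Among the controls it reached that level only at 4 dpf, so the 2 dpf side may be background and the size is uncertain. The secreted mucin muc5.1 (1.06, adjusted p = 0.0386) and the lectin itln3 (2.33, adjusted p = 0.00951) rose, and agr2, a factor of mucin folding, had 10.02 and 10.21 at 2 dpf and 10.24 and 10.36 at 4 dpf. Mucous cells line the gut as well as the skin, and whole larvae do not separate the sites. Calls were lost without any 1 of the 4 control arrays for foxi3a, cftr and muc5.1. For slc9a3.2 and itln3 this held without 2 dpf replicate 1, 4 dpf replicate 1 or 4 dpf replicate 2. For rhcgb this held without 2 dpf replicate 1.

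Of 36 genes of the epidermis, 7 were higher and 2 lower, with a median of 0.01 (left-out range 3 to 5 higher, 0 to 1 lower, median -0.01 to 0.06). The keratin krt96 had 7.2 and 7.37 at 2 dpf and 9.13 and 9.02 at 4 dpf. krt96 lay higher at 4 dpf without overlap, by a log2 change of 1.79 ± 0.18 (SE, adjusted p = 0.000452). The keratins krt93 (1.99, adjusted p = 0.00229) and krt92 (1.39, adjusted p = 0.00427) were, like krt96, called in every fit that left out 1 control array. The widely used skin keratins krt4 and krt5 had 13.67 and 13.75 at 2 dpf and 13.46 and 13.58 at 4 dpf and 12.75 and 12.72 at 2 dpf and 12.36 and 12.7 at 4 dpf, in that order, and tp63, the master factor of basal keratinocytes, had 10.83 and 10.73 at 2 dpf and 10.92 and 11.02 at 4 dpf, and these 3 did not pass. Keratin genes of zebrafish include close paralogs, and probe sets can share their signal. The keratin cyt1l (-0.76, adjusted p = 0.0211) and anxa1c (-1.43, adjusted p = 0.0237) fell. Of 6 tested hatching gland genes, 0 were higher and 2 lower (median -0.45, left-out range 0 higher, 0 to 2 lower, median -1.06 to -0.31). These were the hatching enzyme he1.1 and the protease ctslb. The former had 6.68 and 5.83 at 2 dpf and 2.71 and 3.86 at 4 dpf, with the widest gap between 4 dpf replicates among the genes of the list that passed. For he1.1 the log2 change was -2.97 ± 0.71 (SE, adjusted p = 0.0284). Its 4 dpf values lay below the 25th percentile of their arrays (4.56 and 4.58), so they may be background and the size is uncertain. ctslb had 7.57 and 6.72 at 2 dpf and 4.88 and 4.94 at 4 dpf. ctslb was lower on both 4 dpf arrays, with a log2 change of -2.23 ± 0.54 (SE, adjusted p = 0.03). Calls ended, with the adjusted p in brackets, without 2 dpf replicate 1, 4 dpf replicate 1 or 4 dpf replicate 2 for he1.1 (0.071 to 0.17) and ctslb (0.13 to 0.19). For cyt1l (0.06 to 0.14) this held without 2 dpf replicate 1, 2 dpf replicate 2 or 4 dpf replicate 1. For anxa1c (0.051 to 0.14) this held without any 1 of the 4 control arrays.

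In the skeleton and the connective tissue genes moved in both directions. Of 17 notochord genes, 4 were lower and 0 higher, with a median of -0.48 (left-out range 0 higher, 0 to 2 lower, median -0.55 to -0.37). The lower genes included the signals shha (-0.84, adjusted p = 0.00604) and shhb (-0.66, adjusted p = 0.0226) and the sheath collagen col8a1a (-0.98, adjusted p = 0.0398), while tbxta, the early notochord factor, had 9.1 and 9.25 at 2 dpf and 8.44 and 8.92 at 4 dpf. Of 27 cartilage genes, 2 were higher and 4 lower, with a median of -0.36 (left-out range 1 to 3 higher, 1 to 4 lower, median -0.38 to -0.31). The matrix link protein hapln1a had 12.18 and 12.04 at 2 dpf and 10.87 and 10.94 at 4 dpf. hapln1a lay lower at 4 dpf without overlap, by a log2 change of -1.21 ± 0.15 (SE, adjusted p = 0.00147). In the other direction ucmaa, a secreted protein of maturing cartilage, had 6.45 and 6.71 at 2 dpf and 8.04 and 8.44 at 4 dpf. For ucmaa the log2 change was 1.66 ± 0.18 (SE, adjusted p = 0.000858). The hedgehog ligand of growing cartilage, ihha, rose (1.07, adjusted p = 0.024). The main cartilage collagen col2a1a, in contrast, had 11.5 and 11.31 at 2 dpf and 11.37 and 11.42 at 4 dpf. Of 21 genes of bone and mineralisation, 3 were higher and 1 lower (median 0.14, left-out range 0 to 3 higher, 0 to 1 lower, median 0.13 to 0.2). The genes spp1 (0.98, adjusted p = 0.0391), col10a1a (0.73, adjusted p = 0.0472) and runx2a (0.59, adjusted p = 0.0408) rose and dlx5a fell (-0.89, adjusted p = 0.0117), and sp7, a master factor of osteoblasts, had 8.15 and 8.05 at 2 dpf and 8.35 and 8.05 at 4 dpf. Of 26 genes of the fin fold and connective tissue, 2 were higher and 3 lower (median -0.21, left-out range 0 to 3 higher, 0 to 3 lower, median -0.24 to -0.2). Among them were tnmd of tendons (0.97, adjusted p = 0.0176) and fibrillin fbn2b (-1.14, adjusted p = 0.0108). With 1 array fewer, calls were lost (adjusted p in brackets) without 2 dpf replicate 1, 4 dpf replicate 1 or 4 dpf replicate 2 for shhb (0.082 to 0.15), ihha (0.1 to 0.14), spp1 (0.13 to 0.23), col10a1a (0.17 to 0.24), dlx5a (0.055 to 0.091), tnmd (0.094 to 0.11) and fbn2b (0.055 to 0.082). For col8a1a (0.086 to 0.19) and runx2a (0.095 to 0.21) this held without any 1 of the 4 control arrays. For shha (0.058) this held without 4 dpf replicate 1.

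Of 10 genes of the swim bladder and of smooth muscle, 5 were higher and 1 lower, with a median of 0.73 (left-out range 1 to 4 higher, 0 to 1 lower, median 0.72 to 0.74). The lower gene was mnx1, described above. Smooth muscle actin, acta2, had 8.22 and 9.25 at 2 dpf and 11.79 and 11.67 at 4 dpf. acta2 was higher on both 4 dpf arrays, with a log2 change of 3 ± 0.43 (SE, adjusted p = 0.00321). The contractile genes tagln (1.56, adjusted p = 0.0177) and myh11a (1.33, adjusted p = 0.0346) rose with it. So did the surfactant genes sftpbb (1.36, adjusted p = 0.0146) and abca3b (0.81, adjusted p = 0.0188). The genes that open the swim bladder list, sftpba and anxa5b, did not pass. The gut wall also holds smooth muscle. In the list of skeletal muscle the shares called were near those of all genes, 7.41% higher and 5.56% lower. Its median was also near that of all genes. Of 54 genes of fast and slow muscle, 4 were higher and 3 lower, with a median of -0.06 (left-out range 1 to 4 higher, 3 to 4 lower, median -0.07 to 0). The troponin I gene tnni2a.1 had 6.11 and 7.08 at 2 dpf and 9.74 and 9.69 at 4 dpf. tnni2a.1 lay higher at 4 dpf without overlap, by a log2 change of 3.12 ± 0.42 (SE, adjusted p = 0.00234). The troponin T genes tnnt2c (-1.98, adjusted p = 0.00159) and tnnt3a (-1.1, adjusted p = 0.003) and the myosin-binding protein mybpc2b (-1.15, adjusted p = 0.00351) fell. These 4 were called in every fit that left out 1 control array. The fast light chain mylpfa, in contrast, had 13.32 and 13.24 at 2 dpf and 13.38 and 13.25 at 4 dpf. Of 19 genes of myoblasts and precursors, 0 were higher and 2 lower (median -0.18, left-out range 0 to 1 higher, 0 to 1 lower, median -0.23 to -0.13). One of these was the fusion factor mymk (-0.53, adjusted p = 0.0408). Some calls needed all arrays and ended (adjusted p in brackets) without 2 dpf replicate 1, 4 dpf replicate 1 or 4 dpf replicate 2 for tagln (0.086 to 0.13), myh11a (0.13 to 0.21) and sftpbb (0.067 to 0.096). For abca3b (0.068 to 0.13) and mymk (0.1 to 0.2) this held without any 1 of the 4 control arrays.

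In the heart, blood and vessels few genes passed. Of 26 heart genes, 1 was higher and 3 lower (median -0.06, left-out range 0 to 4 higher, 0 to 1 lower, median -0.22 to 0.02). The higher gene was the calcium pump atp2a2a (0.9, adjusted p = 0.00857), and the lower genes were the factors hand2 (-0.93, adjusted p = 0.00594) and tbx5a (-0.62, adjusted p = 0.0261) and the atrial myosin myh6 (-0.69, adjusted p = 0.0383). The myosin light chain myl7 had 9.09 and 10.05 at 2 dpf and 9.93 and 9.97 at 4 dpf. Of 23 genes of red blood cells, 1 was higher and 2 lower (median -0.27, left-out range 0 to 1 higher, 1 to 2 lower, median -0.28 to -0.14). The first enzyme of haem synthesis in erythroid cells, alas2, had 9.63 and 9.68 at 2 dpf and 8.39 and 8.45 at 4 dpf. For alas2 the log2 change was -1.24 ± 0.16 (SE, adjusted p = 0.00188). The globin hbae1.1 had 11.57 and 12.24 at 2 dpf and 11.22 and 11.63 at 4 dpf and did not pass. Of 12 genes of blood stem and progenitor cells, 1 was higher, runx1 (0.68, adjusted p = 0.0371), and 1 lower, nfe2l3 (-1.11, adjusted p = 0.0244) (median 0.03, left-out range 0 higher, 0 to 1 lower, median -0.09 to 0.04). Of 35 vessel genes, 2 were higher and 3 lower (median -0.15, left-out range 0 to 2 higher, 0 to 4 lower, median -0.19 to -0.14). The claudins cldn5a (-0.56, adjusted p = 0.0388) and cldn5b (-0.66, adjusted p = 0.0196) and the mannose receptor mrc1a (-0.87, adjusted p = 0.0182) fell, while the endothelial receptor kdrl had 9.29 and 9.39 at 2 dpf and 9.19 and 9.41 at 4 dpf. Calls were lost without any 1 of the 4 control arrays for tbx5a, myh6, runx1, cldn5a and cldn5b. For nfe2l3 and mrc1a this held without 2 dpf replicate 1, 4 dpf replicate 1 or 4 dpf replicate 2. For atp2a2a this held without 4 dpf replicate 1 or 4 dpf replicate 2. For hand2 this held without 4 dpf replicate 2.

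Immune genes moved upward where they passed. Of 22 genes of antigen presentation, 7 were higher and 0 lower, with a median of 0.48 (left-out range 3 to 5 higher, 0 lower, median 0.47 to 0.7). The proteasome activator subunits psme1 and psme2, which shape the peptides presented by class I molecules, rose together: psme1 had 8.32 and 8.24 at 2 dpf and 10.89 and 10.71 at 4 dpf. The ages did not overlap for psme1, whose log2 change was 2.52 ± 0.21 (SE, adjusted p = 0.000153). psme2 had 6.9 and 6.51 at 2 dpf and 9.19 and 8.76 at 4 dpf. psme2 lay higher at 4 dpf without overlap, by a log2 change of 2.27 ± 0.35 (SE, adjusted p = 0.00458). The light chain paralog b2ml had 10.55 and 10.76 at 2 dpf and 11.85 and 11.89 at 4 dpf. For b2ml the log2 change was 1.22 ± 0.19 (SE, adjusted p = 0.00481). In contrast, b2m had 7.22 and 7.37 at 2 dpf and 8.32 and 7.81 at 4 dpf and did not pass. The peptide transporters tap1 (1.33, adjusted p = 0.0478) and tap2t (1.23, adjusted p = 0.0162) rose. Of 22 interferon response genes, 3 were higher and 0 lower, with a median of 0.64 (left-out range 2 higher, 0 lower, median 0.44 to 0.77). The transcription factor irf1b had 7.2 and 7.96 at 2 dpf and 11.58 and 10.99 at 4 dpf. irf1b was higher on both 4 dpf arrays, with a log2 change of 3.71 ± 0.46 (SE, adjusted p = 0.00159). stat2, which carries the signal of the interferon receptor, had 7.64 and 7.75 at 2 dpf and 9.49 and 9.43 at 4 dpf. stat2 lay higher at 4 dpf without overlap, by a log2 change of 1.76 ± 0.23 (SE, adjusted p = 0.00189). The antiviral effectors rsad2, mxa and isg15 did not pass. rsad2 had 5.28 and 5.37 at 2 dpf and 5.45 and 5.19 at 4 dpf. For isg15 the signal was 6.44 and 6.93 at 2 dpf and 7.81 and 7.37 at 4 dpf. At 4 dpf the interferon list had a higher mean on replicate 1 than on replicate 2 in each group. It was 7.13 and 6.85 in controls, 7.46 and 6.84 in 5-HT and 7.56 and 6.83 in reserpine larvae. The antigen presentation and myeloid lists had the same order at 4 dpf. At 2 dpf the interferon list lay the other way round in each group, with 6.15 and 6.29 in controls. The part of this replicate difference in the rises was not tested. Calls ended, with the adjusted p in brackets, without any 1 of the 4 control arrays for tap1 (0.14 to 0.19) and tap2t (0.061 to 0.11).

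Of 37 myeloid genes, 10 were higher and 0 lower, with a median of 0.55 (left-out range 4 to 7 higher, 0 lower, median 0.4 to 0.77). The perforin-like macrophage gene mpeg1.2 had 8.43 and 8.61 at 2 dpf and 11.88 and 11.55 at 4 dpf. For mpeg1.2 the log2 change was 3.19 ± 0.18 (SE, adjusted p = 1.67e-05). The amino acid transporter slc7a7, which marks microglia in zebrafish, had 8.51 and 8.97 at 2 dpf and 10.37 and 10.47 at 4 dpf. slc7a7 was higher on both 4 dpf arrays, with a log2 change of 1.68 ± 0.16 (SE, adjusted p = 0.000378). The carboxypeptidase cpa5, known from zebrafish mast cells, had 8.93 and 10.36 at 2 dpf and 13.59 and 13.63 at 4 dpf. cpa5 lay higher at 4 dpf without overlap, by a log2 change of 3.96 ± 0.54 (SE, adjusted p = 0.00245). Carboxypeptidase genes of the exocrine pancreas list had a like pattern. There cpa4 had 6.67 and 8.65 at 2 dpf and 12.43 and 12.42 at 4 dpf. For cpb1 the signal was 7.06 and 9.7 at 2 dpf and 13.33 and 13.31 at 4 dpf. Whole larvae do not separate the sites, and the source of the cpa5 signal was not tested. The granulin gene grna.1 was also called in every fit that left out 1 control array (2.63, adjusted p = 0.000772). The common markers did not pass: mpx of neutrophils had 8.94 and 9.28 at 2 dpf and 9.54 and 9.36 at 4 dpf, and mpeg1.1 of macrophages had 8.8 and 9.21 at 2 dpf and 9.83 and 9.69 at 4 dpf.

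Of 23 genes of the thymus and lymphocytes, 4 were higher and 0 lower, with a median of 0.24 (left-out range 1 to 3 higher, 0 lower, median 0.2 to 0.26). The chemokine ccl25a, which draws lymphoid progenitors into the thymus, had 7.61 and 8.22 at 2 dpf and 10.75 and 10.18 at 4 dpf. For ccl25a the log2 change was 2.55 ± 0.3 (SE, adjusted p = 0.00117). The recombinase rag1, which assembles antigen receptors in the thymus, had 6.37 and 6.37 at 2 dpf and 7.07 and 7.33 at 4 dpf. rag1 was higher on both 4 dpf arrays, with a log2 change of 0.83 ± 0.17 (SE, adjusted p = 0.0161). The T cell kinase lck rose (0.79, adjusted p = 0.0457). Of 30 genes of complement and the acute phase, 3 were higher and 0 lower, with a median of 0.29 (left-out range 2 to 11 higher, 0 lower, median -0.01 to 0.69). The complement component paralog c3a.2 had 5.31 and 4.84 at 2 dpf and 9.36 and 8.48 at 4 dpf. c3a.2 lay higher at 4 dpf without overlap, by a log2 change of 3.85 ± 0.49 (SE, adjusted p = 0.00167). In contrast, its neighbour in name c3a.1 had 10.08 and 11.73 at 2 dpf and 10.92 and 11.11 at 4 dpf. Complement factor D, cfd, had 8.71 and 8.91 at 2 dpf and 10.17 and 10.03 at 4 dpf. For cfd the log2 change was 1.29 ± 0.17 (SE, adjusted p = 0.00181). The acute phase gene saa had 6.37 and 6.79 at 2 dpf and 7.12 and 7.43 at 4 dpf and did not pass. Of the complement list 10% were higher, near the 8.29% of all genes. The mean signal of that list was 6.94 and 7.58 on the 2 dpf controls. At that age it was 7.62 and 7.79 in 5-HT larvae and 7.51 and 7.56 in reserpine larvae. Its median age change was 0.20 in 5-HT and 0.19 in reserpine larvae. With 1 array fewer, calls were lost (adjusted p in brackets) without 2 dpf replicate 1, 4 dpf replicate 1 or 4 dpf replicate 2 for rag1 (0.051 to 0.13) and lck (0.062 to 0.29).

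In the liver, the metabolic genes that passed were higher. Of 32 genes of hepatic metabolism, 12 were higher and 0 lower, with a median of 1.19 (left-out range 4 to 23 higher, 0 lower, median 0.56 to 1.69). The rate-limiting enzyme of bile acid synthesis, cyp7a1, had 5.49 and 6.22 at 2 dpf and 10.46 and 10.16 at 4 dpf. cyp7a1 was higher on both 4 dpf arrays, with a log2 change of 4.46 ± 0.4 (SE, adjusted p = 0.000251). The bile salt export pump abcb11b had 5.93 and 6.46 at 2 dpf and 8.13 and 8.19 at 4 dpf. abcb11b lay higher at 4 dpf without overlap, by a log2 change of 1.97 ± 0.3 (SE, adjusted p = 0.00478). The first enzyme of tryptophan breakdown, tdo2a, had 5.4 and 6.68 at 2 dpf and 8.83 and 8.96 at 4 dpf. For tdo2a the log2 change was 2.85 ± 0.43 (SE, adjusted p = 0.00413). hpdb, of tyrosine breakdown, changed by 1.83, adjusted p = 0.00064. These 4 were called in every fit that left out 1 control array. The gene pck1 of glucose synthesis rose too (1.93, adjusted p = 0.0176). The urea cycle gene cps1 had 6.98 and 6.93 at 2 dpf and 6.74 and 6.56 at 4 dpf. Beside these changes stands the difference between the 2 dpf controls in the list mean given above, with replicate 1 the lower; without that array the median of the list was 0.565. Some calls needed all arrays and ended (adjusted p in brackets) without 2 dpf replicate 1 or 4 dpf replicate 1 for pck1 (0.12 to 0.13).

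Of 24 genes of lipoproteins and lipid transport, 5 were higher and 0 lower, with a median of 0.36 (left-out range 2 to 11 higher, 0 lower, median 0.02 to 0.94). The ileal bile acid binding protein fabp6 had 5.83 and 6.88 at 2 dpf and 12.87 and 12.93 at 4 dpf. The ages did not overlap for fabp6, whose log2 change was 6.54 ± 0.44 (SE, adjusted p = 4.51e-05). It had the largest rise among genes with a settled name outside the exocrine pancreas list. Its 2 probe sets differed in size, with changes of 3.54 and 6.54. The hepatic lipase lipca had 5.55 and 5.83 at 2 dpf and 7.39 and 7.27 at 4 dpf. lipca lay higher at 4 dpf without overlap, by a log2 change of 1.64 ± 0.24 (SE, adjusted p = 0.00384). The acyltransferases mogat2 (1.29, adjusted p = 0.0117) and dgat2 (1.4, adjusted p = 0.028), which rebuild triglyceride, rose, and apoa1a, the main apolipoprotein of high density lipoprotein, had 11.65 and 13.14 at 2 dpf and 12.52 and 12.71 at 4 dpf, with the 2 dpf replicates on either side of the 4 dpf values. Calls were lost without 2 dpf replicate 1, 4 dpf replicate 1 or 4 dpf replicate 2 for mogat2 and dgat2.

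**Figure D3:**
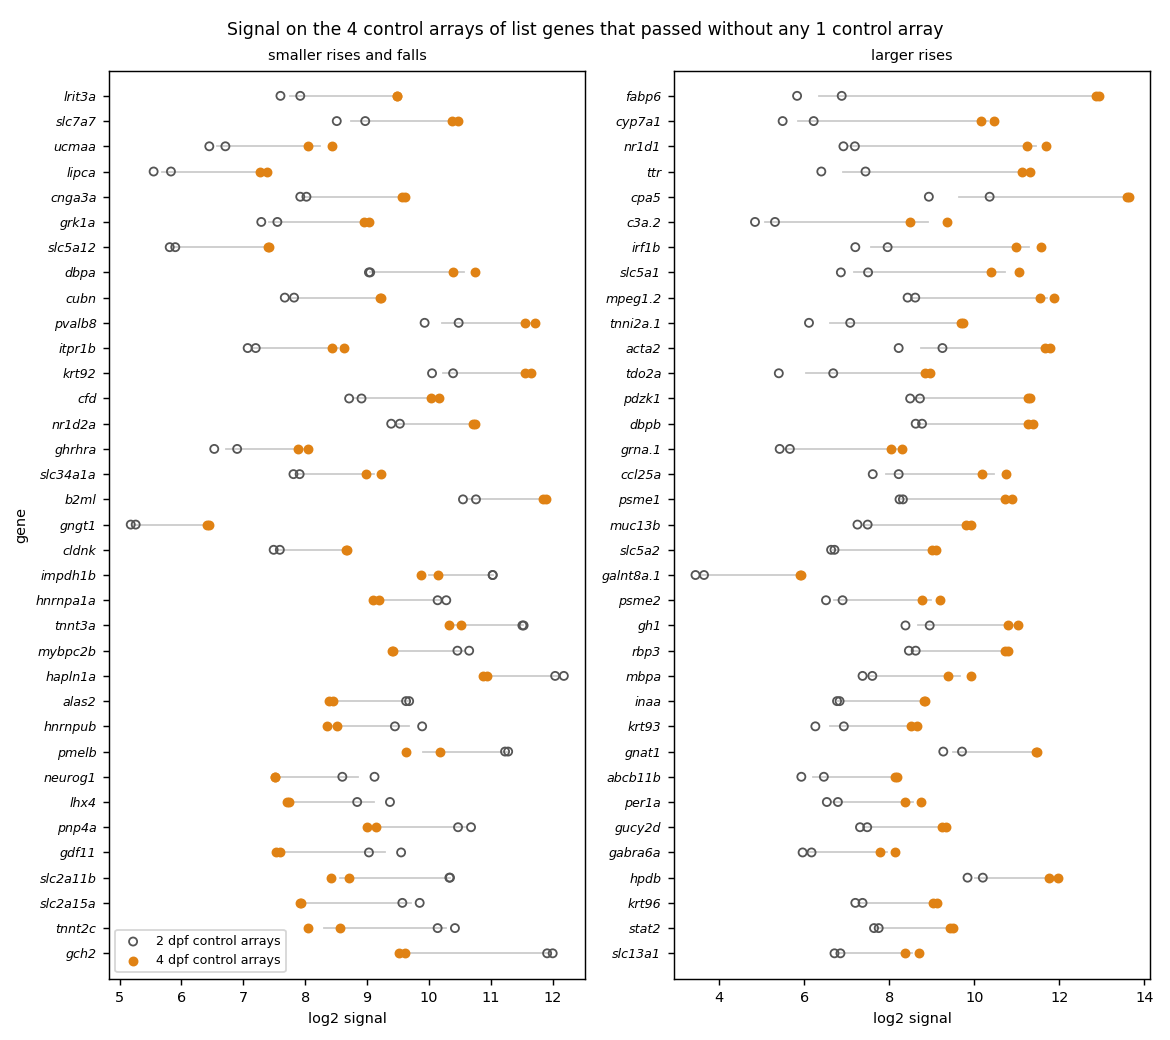
Each row is a gene of the lists outside the exocrine pancreas that was called in every fit that left out 1 control array, with its log2 signal on the 2 dpf control arrays (open circles) and on the 4 dpf control arrays (filled circles), joined at the group means by a grey line. In each of these rows the circles of the 2 ages do not overlap, and the gap is widest for fabp6.

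Among pigment cell genes, more fell than rose. Of 15 melanophore genes, 6 were lower and 0 higher, with a median of -0.53 (left-out range 0 higher, 1 lower, median -0.72 to -0.29). The melanosome matrix protein pmelb had 11.28 and 11.23 at 2 dpf and 9.63 and 10.18 at 4 dpf. For pmelb the log2 change was -1.35 ± 0.2 (SE, adjusted p = 0.00432). The melanin enzymes tyr (-0.8, adjusted p = 0.0433) and dct (-0.74, adjusted p = 0.0449) and their regulator mitfa (-0.72, adjusted p = 0.0443) fell too. Of 11 xanthophore genes, 4 were lower and 2 higher (median -0.2, left-out range 0 higher, 3 to 5 lower, median -0.53 to 0.01). The enzyme that begins pteridine synthesis, gch2, had 11.91 and 12 at 2 dpf and 9.52 and 9.61 at 4 dpf. gch2 was lower on both 4 dpf arrays, with a log2 change of -2.39 ± 0.25 (SE, adjusted p = 0.000544). The transporters slc2a11b (-1.78, adjusted p = 0.00261) and slc2a15a (-1.78, adjusted p = 0.000467), both of the xanthophore list, fell to a like extent. The higher genes were xdh (0.86, adjusted p = 0.0157), which acts on purines and pterins, and scarb1 (0.64, adjusted p = 0.0316), which takes up carotenoids. Of 19 genes of iridophores and purine synthesis, 9 were lower and 1 higher, with a median of -0.56 (left-out range 0 to 1 higher, 2 to 4 lower, median -0.67 to -0.51). The purine enzyme pnp4a of iridophores had 10.68 and 10.47 at 2 dpf and 9 and 9.14 at 4 dpf. pnp4a lay lower at 4 dpf without overlap, by a log2 change of -1.5 ± 0.17 (SE, adjusted p = 0.00101). impdh1b, of guanine nucleotide synthesis, had 11.03 and 11.03 at 2 dpf and 10.14 and 9.87 at 4 dpf. For impdh1b the log2 change was -1.02 ± 0.14 (SE, adjusted p = 0.00262). The receptor ltk, which specifies iridophores, had 8.77 and 8.7 at 2 dpf and 8.81 and 9.02 at 4 dpf and did not pass. Of 14 neural crest genes, 0 were higher and 3 lower (median -0.37, left-out range 0 higher, 0 to 2 lower, median -0.41 to -0.35). The latter include the endothelin receptor ednrab (-0.92, adjusted p = 0.0221), and sox10 had 8.94 and 8.91 at 2 dpf and 8.5 and 8.67 at 4 dpf. Calls ended, with the adjusted p in brackets, without any 1 of the 4 control arrays for tyr (0.068 to 0.25), dct (0.071 to 0.26), mitfa (0.09 to 0.23), xdh (0.058 to 0.12) and scarb1 (0.062 to 0.2). For ednrab (0.089 to 0.14) this held without 2 dpf replicate 1, 4 dpf replicate 1 or 4 dpf replicate 2.

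Part of the genes of the cell cycle, chromatin and splicing fell. Of 57 cell cycle genes, 20 were lower and 0 higher, with a median of -0.52 (left-out range 0 higher, 0 to 17 lower, median -0.66 to -0.47). In 49 of the 57 both 4 dpf arrays lay below both 2 dpf arrays, against 36.6% of all genes, of which 29.6% lay the other way round. None of the 20 was called in every fit that left out 1 control array. Of the replicative helicase, mcm6 had 10.18 and 9.84 at 2 dpf and 9.05 and 8.78 at 4 dpf. mcm6 was lower on both 4 dpf arrays, with a log2 change of -1.09 ± 0.2 (SE, adjusted p = 0.0107). cdc45 had 8.12 and 7.75 at 2 dpf and 7 and 6.86 at 4 dpf. cdc45 lay lower at 4 dpf without overlap, by a log2 change of -1 ± 0.16 (SE, adjusted p = 0.00549). The thymidylate synthase tyms (-1, adjusted p = 0.00924) and the cyclin ccne2 (-0.95, adjusted p = 0.0089) fell, and pcna, the sliding clamp, had 12.27 and 12.2 at 2 dpf and 12.05 and 11.91 at 4 dpf and did not pass. Of 29 genes of chromatin and histone variants, 11 were lower and 0 higher, with a median of -0.47 (left-out range 0 higher, 0 to 12 lower, median -0.59 to -0.37). The histone chaperone asf1ba had 7.52 and 7.2 at 2 dpf and 6.14 and 5.5 at 4 dpf. For asf1ba the log2 change was -1.54 ± 0.26 (SE, adjusted p = 0.00786). The heterochromatin protein cbx3a also fell (-0.78, adjusted p = 0.00759). With 1 array fewer, calls were lost (adjusted p in brackets) without 2 dpf replicate 1 or 4 dpf replicate 2 for mcm6 (0.086 to 0.096), tyms (0.066 to 0.089), ccne2 (0.065 to 0.082) and asf1ba (0.07). For cbx3a (0.055 to 0.069) this held without 2 dpf replicate 1, 4 dpf replicate 1 or 4 dpf replicate 2. For cdc45 (0.059) this held without 4 dpf replicate 2.

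Of 49 genes of splicing and RNA processing, 16 were lower and 0 higher, with a median of -0.53 (left-out range 0 higher, 2 to 14 lower, median -0.68 to -0.37). The RNA-binding proteins hnrnpub (-1.24, adjusted p = 0.00358) and hnrnpa1a (-1.06, adjusted p = 0.00273) were called in every fit that left out 1 control array. The core spliceosomal protein snrpg fell (-1.19, adjusted p = 0.013), and sf3b1 had 11.21 and 10.72 at 2 dpf and 11.15 and 10.85 at 4 dpf. Of 52 genes of ribosome biogenesis, 1 was higher, the helicase ddx21 (0.83, adjusted p = 0.0119), and 0 were lower, with a median of -0.27 (left-out range 0 to 1 higher, 0 to 1 lower, median -0.41 to -0.1). Fibrillarin, fbl, had 11.21 and 10.85 at 2 dpf and 10.63 and 10.31 at 4 dpf. Of 12 genes of the lin28 group, RNA-binding proteins and other factors typical of immature cells, 0 were higher and 3 lower (median -0.44, left-out range 0 higher, 0 to 4 lower, median -0.58 to -0.29). They were lin28ab (-1.25, adjusted p = 0.00702), the chromatin protein hmga2 (-0.86, adjusted p = 0.00724) and the methyltransferase dnmt3bb.2 (-1.01, adjusted p = 0.0204). Of 32 genes of the tailbud, the somite clock and early patterning, 1 was higher and 3 lower (median -0.09, left-out range 0 to 1 higher, 1 to 2 lower, median -0.19 to -0.08). gdf11, a signal that ends trunk formation in the mouse, had 9.55 and 9.03 at 2 dpf and 7.53 and 7.59 at 4 dpf. gdf11 was lower on both 4 dpf arrays, with a log2 change of -1.73 ± 0.18 (SE, adjusted p = 0.000678). The clock gene her7 had 6.07 and 5.71 at 2 dpf and 6 and 5.84 at 4 dpf. Some calls needed all arrays and ended (adjusted p in brackets) without 2 dpf replicate 1, 4 dpf replicate 1 or 4 dpf replicate 2 for snrpg (0.067 to 0.096), ddx21 (0.077 to 0.084) and dnmt3bb.2 (0.084 to 0.13). For lin28ab (0.052 to 0.064) this held without 2 dpf replicate 1 or 4 dpf replicate 1. For hmga2 (0.051 to 0.066) this held without 4 dpf replicate 1 or 4 dpf replicate 2.

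A group of circadian clock genes rose, and the list also parted the replicates. Of 30 clock genes, 10 were higher and 1 lower, with a median of 0.50 (left-out range 5 to 8 higher, 0 to 1 lower, median 0.16 to 1.03). The repressor nr1d1 had 6.92 and 7.19 at 2 dpf and 11.69 and 11.23 at 4 dpf. nr1d1 lay higher at 4 dpf without overlap, by a log2 change of 4.41 ± 0.32 (SE, adjusted p = 6.45e-05). The output factors dbpb (2.63, adjusted p = 5.77e-05) and dbpa (1.53, adjusted p = 0.00115), per1a (1.9, adjusted p = 0.00386) and nr1d2a (1.26, adjusted p = 0.00501) were, like nr1d1, called in every fit that left out 1 control array. The light-induced gene per2 had 9.91 and 8.01 at 2 dpf and 10.81 and 7.82 at 4 dpf, so that replicate 1 of each age lay above both replicates 2. The mean signal of the list was 9.23 and 8.84 at 2 dpf and 10.06 and 9.36 at 4 dpf, and in the treated groups as well replicate 1 lay above replicate 2 at each age. The hour of collection is not given, and the part of such a difference between the samples in the rise of the clock genes was not tested. An hour of collection that differed between the 2 ages cannot be told apart from age for nr1d1 or the other clock genes.

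**Figure D4:**
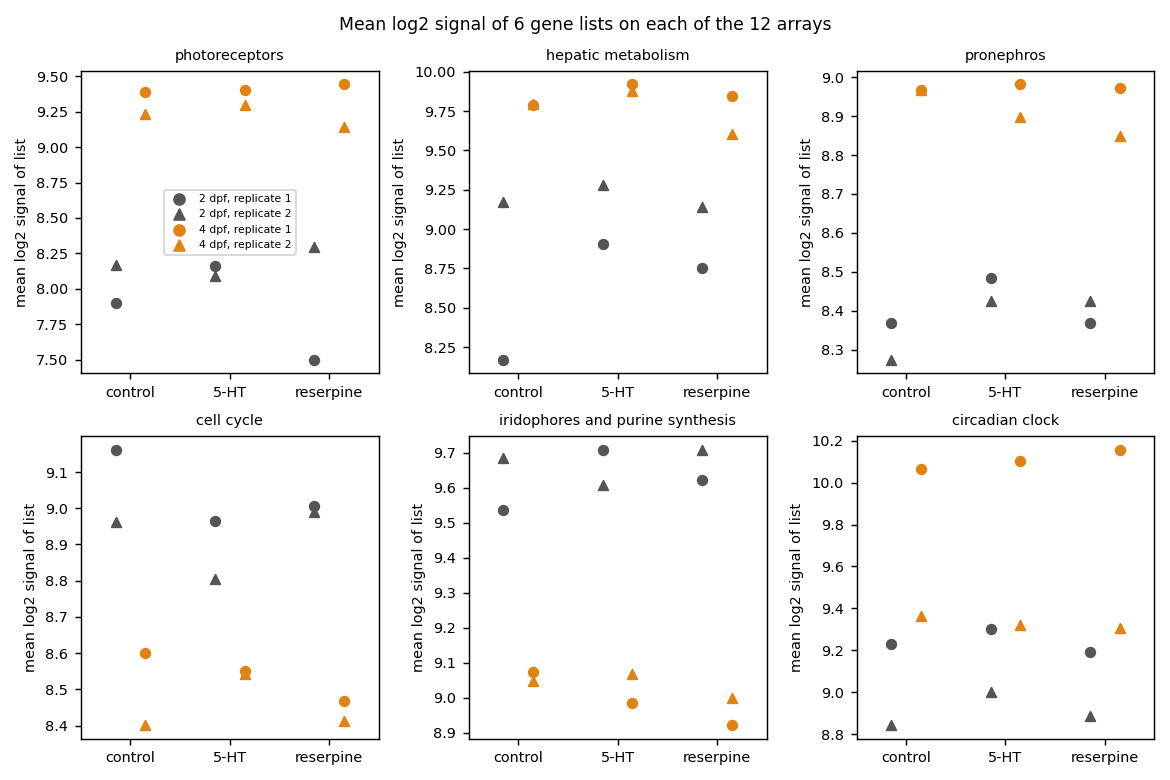
Each panel shows the mean log2 signal of 1 gene list on the 12 arrays, grey at 2 dpf and orange at 4 dpf, with circles for replicate 1 and triangles for replicate 2, for control, 5-HT and reserpine larvae. In the circadian panel the circles lie above the triangles of the same age in all 3 groups of larvae, and in the panel of hepatic metabolism replicate 1 of the 2 dpf controls is the lowest array.

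A last ranking took called genes with a settled name, outside the exocrine pancreas list, whose control arrays did not overlap between the ages. In it the 15 largest rises ran from fabp6 (6.54) to the phosphate transporter slc34a2a (4.42). The peptide transporter slc15a1b had 5.44 and 5.32 at 2 dpf and 11.27 and 11.36 at 4 dpf (5.93, adjusted p = 2.33e-07), and its paralog slc15a1a changed by 4.56, adjusted p = 5.2e-07. The protease gene ctsbb had 6.11 and 6.49 at 2 dpf and 11.94 and 12.06 at 4 dpf (5.7, adjusted p = 2.91e-06), and slc34a2a had 6.04 and 5.63 at 2 dpf and 10.18 and 10.34 at 4 dpf (4.42, adjusted p = 4.96e-06). The others were, by size, the amylase paralog amy2al2 (5.57, adjusted p = 2.91e-06), ms4a17a.16 (5.51, adjusted p = 3.05e-05), the astacin-like protease c6ast4 (4.92, adjusted p = 2.91e-06), sucrase-isomaltase si (4.89, adjusted p = 2.69e-06), the carboxypeptidase cpo (4.88, adjusted p = 4.96e-06), plekhs1.1 (4.71, adjusted p = 2.55e-05), the meprin gene mep1a.1 (4.57, adjusted p = 9.26e-06), vwa11 (4.54, adjusted p = 4.46e-06), cyp7a1 and the elastase paralog cela1.6 (4.43, adjusted p = 0.000176). The largest falls were smaller. The gene aep1 had 5.73 and 6.27 at 2 dpf and 3.53 and 3.55 at 4 dpf. For aep1 the log2 change was -2.46 ± 0.2 (SE, adjusted p = 0.000128). Both of its 4 dpf values lay below the 25th percentile of their arrays (4.56 and 4.58), so they may be background. The fatty acid binding protein fabp4b had 10.46 and 10.5 at 2 dpf and 8.26 and 8.7 at 4 dpf. fabp4b was lower on both 4 dpf arrays, with a log2 change of -2 ± 0.22 (SE, adjusted p = 0.000836). The calpain gene capn3b (-1.89, adjusted p = 0.000843), notum2, of the family of Wnt deacylases (-1.84, adjusted p = 0.00431) and nansb, an enzyme of sialic acid synthesis (-1.81, adjusted p = 9.69e-05), fell as well. Each of these 15 risers and 5 fallers was called in every fit that left out 1 control array. The risers are the full 15, but the 5 fallers are a selection from the 15 largest falls. Others of those falls were not called in every such fit. They were he1.1 and ctslb, described above, aqp8b (-2.155), znfl1g (-2.09), b3gnt3.1 (-1.905) and slc39a5 (-1.815).

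The same age difference was measured on other arrays, in larvae injected with reserpine or with 5-HT, which share no array with the controls. The tests do share 1 estimate of the spread over all 12 arrays, so the calls are not independent of each other. The shares of genes with the same sign are given without that of all genes, so they cannot be weighed here. At 2 dpf, replicate 2 of the reserpine larvae correlated at 0.99 with replicate 2 of the controls. Replicate 1 of the reserpine larvae correlated with that control array at 0.975, and the 2 controls with each other at 0.977. In reserpine larvae 100% of the 1524 genes that rose in controls changed in the same direction, and 1043 of them passed as well, which was 68.4% of the 1524 and 87.0% of the 1199 genes higher there (6.52% of all genes tested). Of the 1321 genes that fell in controls, 99.9% had the same sign in reserpine larvae, and 653 passed (49.4% of the 1321 and 78.1% of the 836 lower there, 4.55% of all genes). In 5-HT larvae 91.9% of the higher genes kept their sign and 909 passed (59.6% of them and 67.3% of the 1350 higher there, 7.34% of all genes), and 89.6% of the lower genes kept their sign and 302 passed (22.9% of them and 35.5% of the 850 lower there, 4.62% of all genes). The age change itself differed between 5-HT and control larvae for 111 genes (0.604% of those tested), of which 40 were among the genes that rose and 10 among those that fell in controls. That count did not hold when single arrays were left out, which leaves 1 pool in a group. It was 0 when the array left out was replicate 1 of the 2 dpf controls, either 4 dpf control, replicate 2 of the 2 dpf 5-HT larvae or either 4 dpf 5-HT array. It was 22 without replicate 2 of the 2 dpf controls, 12 without replicate 1 of the 2 dpf 5-HT larvae and 32 without replicate 2 of the 4 dpf reserpine larvae. Between reserpine and control larvae it differed for 0 features in limma's test. At an unadjusted p under 0.05 there were 1430, fewer than the 2906 that this threshold alone would give. For genes described above the sizes were as follows. The change of cyp7a1 was 4.46 in controls, 3.98 in 5-HT and 4.29 in reserpine larvae. In the same order it was 2.25, 1.55 and 2.06 for gh1, -2.39, -2.06 and -2.54 for gch2 and 2.17, 2.09 and 2.31 for mbpa. For mcm6 it was -1.09, -0.46 and -0.84. The cell cycle list had a median change of -0.52 in controls, -0.315 in 5-HT and -0.52 in reserpine larvae, and the difference between these medians was not tested.

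**Figure D5:**
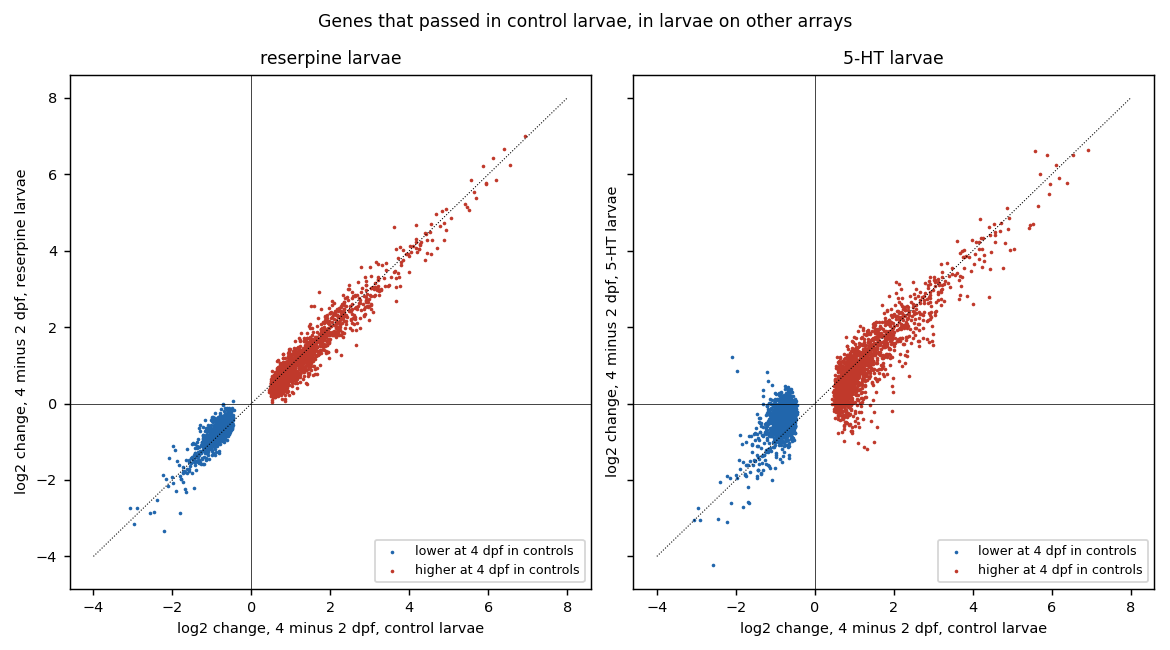
Each point is 1 of the genes called in control larvae (1524 higher in red, 1321 lower in blue), with its log2 change from 2 to 4 dpf in controls on the x axis and in reserpine larvae (left) or 5-HT larvae (right) on the y axis, and the dotted line marks equal change. The points follow the line in reserpine larvae, and the small changes scatter across 0 more widely in 5-HT larvae.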

How the data were processed

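Whole larvae of 6 groups, with 2 pools each, were hybridised to 12 Affymetrix arrays. The authors deposited a table of 73244 features that was read as log2 values, with 2 decimals; no label or header names the software, background correction or normalization behind it, and it was used as deposited. The array medians lay between 6.44 and 6.56, and the number of arrays limits the precision. Features were named from the platform annotation: 20491 carried 1 gene symbol, 842 several and 51911 none, and only the first were named. Of these, 20013 matched a RefSeq gene table and 1 symbol was updated through it, and 45 listed genes were matched through older symbols. The filter on low signals asked for a value at or above the 25th percentile of its array on at least 2 arrays; 58127 features passed it, and 66.0% of these had no single gene name.

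limma 3.58.1 in R 4.3.3 (lmFit, eBayes, two-sided) was fitted to the 12 arrays with 6 group means, with 6 residual and 3.53 prior degrees of freedom. The p-values were adjusted by Benjamini-Hochberg over all features tested and called under 0.05. The median standard error of the age change was 0.20. A gene was represented by the probe set with the highest mean over the 12 arrays, which gave 18385 genes. Among the 2845 genes called, 197 had several probe sets, and in 14 of them the probe sets changed in opposite directions. The difference between the age change of treated and control larvae was fitted as an interaction, for 2 treatments. On simulated data for the control comparison over 58127 features, the fit recovered 27 of 100 spiked changes of 2-fold and 92 of 100 of 4-fold, with 6 false among 125 calls. Only the spiked features differed between the control ages there, and the errors of the arrays were drawn independently. In the deposited values 6578 features were called and replicate differences were shared in part between groups. The simulated rates therefore do not carry over to the calls of this comparison.

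The comparison, its 55 gene lists and the rule for naming genes were chosen with earlier results of these data known. The rule named the 15 largest rises and the 15 largest falls without overlap of the ages and outside the exocrine pancreas list, the first 3 measured genes and up to 6 called genes per direction of each list, and up to 5 genes per direction of each interaction; provisional and clone names were skipped, and a selection is given. Genes outside the rule are said to have been chosen after their values were seen. The p-values measure the spread between pools, whose independence rests on the labels. The description of replicate 2 of the 4 dpf reserpine larvae gives another age than its title, which was followed. Replicate numbers were not taken to pair the arrays, since the labels name no pairing. Yet the replicate differences of the 6 groups were correlated at -0.07 to 0.33, and 12 of 15 correlations were over 0.1. Part of the replicate difference was thus shared between groups, and the main fit left it in the residual spread. That fit called 6578 features, against 8569 with the replicate number as a block. The alternatives were no filter, a filter at the array median, quantile normalization, a replicate block, the mean over the probe sets of a symbol, the 4 control arrays alone and leaving out single arrays. No sequences are shown.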

Additional observations from a re-analysis of the deposited data

Results flagged for a closer look

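For 10 genes the age change differed between 5-HT and control larvae by a test of the difference itself, and they were the 5 largest differences in each direction among named genes. The values are the log2 age change in 5-HT larvae minus that in control larvae. They were 3.30 for znfl1g (adjusted p = 0.0396), 3.22 for tpm1 (0.0208), 2.83 for calm3b (0.0207), 2.04 for ndufb4 (0.0203) and 1.575 for gmpr (0.0327). In the other direction they were -2.50 for wnk4b (adjusted p = 0.0211), -2.49 for foxj2 (0.0334), -2.49 for pygo2 (0.0394), -2.365 for wipf2b (0.0272) and -2.205 for lrtm2a (0.0308). The calmodulin gene calm3b had 8.72 and 8.80 at 2 dpf and 7.09 and 6.48 at 4 dpf in controls, a change of -1.98, against 0.85 in 5-HT and -1.12 in reserpine larvae. The kinase gene wnk4b had 8.65 and 8.77 at 2 dpf and 9.89 and 10.17 at 4 dpf in controls, a change of 1.32, against -1.18 in 5-HT and 0.71 in reserpine larvae. These are the arrays that the second principal component places on opposite sides, and the part of that component in the differences was not tested.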

How the results depend on the processing

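The count of called features, 6578 with 1524 higher and 1321 lower genes, moved most with the arrays. Over the fits that left out 1 array it lay between 1457 and 6150, with 530 to 1492 higher and 134 to 1181 lower genes. It was 1626 without the first 2 dpf control, 1710 without the first and 1457 without the second 4 dpf control, 5411 without the second 2 dpf control and 6150 without replicate 2 of the 4 dpf reserpine larvae. Fitted to the 4 control arrays alone it was 4104, with 1036 higher and 451 lower genes. It was 5781 with no filter, 7137 with a filter at the array median, 6855 after quantile normalization, 6363 with the mean over probe sets and 8569 with the replicate number as a block, a pairing that the labels do not give. The difference in age change between 5-HT and control larvae was called for 1253 features and 111 genes. Leaving out 1 array of its groups gave 0 to 325 features and 0 to 22 genes, no filter 73 genes, the replicate block 176 genes (1614 features) and leaving out the second array of 4 dpf reserpine larvae 32 genes and 860 features. For reserpine the count was 0 under every alternative run, the replicate block included. Over the fits that left out 1 control array, the median of 13 of 55 lists reached the other sign, complement (0.29, from -0.0075 to 0.6925) and xanthophores among them. That of the thyroid list was -0.045 with the filter at the array median and with the mean over probe sets. Over the fits that left out 1 array those of astroglia ran from -0.05 to 0.06, of muscle from -0.0675 to 0.0025 and of xanthophores from -0.53 to 0.005. The sign turned without the first 2 dpf control (astroglia, -0.05) or the second 4 dpf control (astroglia, -0.005, muscle and xanthophores). The receptor gene gabrb2a, called at 0.89, had -0.0875 with the mean over its probe sets. The cause of these moves was not tested. Of 301 called genes named by the rule or chosen later, 105 passed under all 11 alternatives and 211 under all that kept the 4 control arrays in the fit. Of the calls, 824 higher and 218 lower genes changed by at least 2-fold. With 2 pools per age, p-values may not cover differences between clutches.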

Other observations

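Genes of collagen folding and of serine synthesis, which belong to none of the lists, were found among the falls. They were chosen after their values were seen and carry no test as groups. The prolyl isomerase fkbp10b, which acts on collagen in the endoplasmic reticulum, had 10.09 and 9.88 at 2 dpf and 8.47 and 8.33 at 4 dpf, a log2 change of -1.58 ± 0.17 (SE, adjusted p = 8.04e-04). Its relative fkbp14 changed by -1.44 (adjusted p = 0.00258). Of the complex that hydroxylates proline in collagen, crtap fell by 1.41 (adjusted p = 6.10e-04) and p3h1 by 1.31 (adjusted p = 0.00414), while ppib, another of its parts, had 11.17 and 11.26 at 2 dpf and 10.95 and 11 at 4 dpf and did not pass (-0.24, adjusted p = 0.369). In reserpine larvae fkbp10b changed by -1.48 and crtap by -1.34, and in 5-HT larvae by -1.08 and -0.95.

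The first 2 enzymes of serine synthesis fell as well. phgdh had 10.81 and 11.13 at 2 dpf and 9.38 and 9.47 at 4 dpf, a change of -1.55 ± 0.20 (SE, adjusted p = 0.00173), and psat1 had 11.62 and 11.83 at 2 dpf and 10.45 and 10.29 at 4 dpf, a change of -1.35 ± 0.17 (SE, adjusted p = 0.00164). The neutral amino acid transporter slc1a4 (-1.31, adjusted p = 0.00261) and the mitochondrial folate enzyme aldh1l2 (-1.44, adjusted p = 0.00492) fell too, as did the folate enzyme mthfd2 (-1.59, adjusted p = 0.00612), whereas shmt2, which passes the carbon of serine to folate in mitochondria, had 10.60 and 11.03 at 2 dpf and 10.97 and 11.12 at 4 dpf and did not pass. The call of mthfd2 was lost without replicate 1 of the 2 dpf controls (adjusted p = 0.0586) and without replicate 2 of the 4 dpf controls (0.0608). The other called genes of both paragraphs were called in every fit that left out 1 control array.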
